A study of Caenorhabditis elegans with 6 samples.

Results

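Long intergenic noncoding RNA (lincRNA) genes make transcripts longer than most small RNAs that carry no long open reading frame. The *C. elegans* genes considered here are all 194 that Ensembl annotates with the biotype lincRNA on the nuclear chromosomes, out of 46890 annotated genes. A gene was counted as having a peak when a peak of accessible chromatin overlapped its body or came within 500 bp of its annotated 5′ end. Accessibility was measured by ATAC-seq, in which the Tn5 transposase inserts sequencing adapters into DNA that is not covered by nucleosomes, in isolated germ nuclei (IGN) of young adults. Both strains were grown from starved L1 larvae, and per the study's methods the *prde-1* mutants were harvested some hours later than wild type, when most animals of either strain carried a few embryos. Age at harvest and genotype therefore cannot be told apart. One group was wild type (strain VC2010) and the other carried *prde-1(mj207)V* (strain SX2499). PRDE-1 is a germline component of USTC, the complex that binds upstream of piRNA genes on chromosome IV and is needed for their transcription. Each genotype had 3 samples, which were merged before peaks were called, so that each is represented by 1 peak list with no replicate values. The wild type list held 13996 peaks and the *prde-1* mutant list 9674. With 1 list per genotype no difference between genotypes could be tested, and the read depth behind the lists is unknown. The nuclei were assayed in bulk, so fewer nuclei with an open site and a less open site cannot be told apart. The 95% intervals given are Wilson intervals and cover counting error only.

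Background on the gene class frames what the peaks can show. Like messenger RNAs, lincRNAs are made by RNA polymerase II, and an active start site usually lies in a short stretch of open chromatin. Open chromatin at a lincRNA gene can equally belong to an enhancer or to the promoter of a neighbouring gene, and an ATAC-seq peak has no strand. Few lincRNAs have a known role in the worm. *lep-5*, the member with a genetic name of its own, acts in the timing of tail tip development in males.

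The name of the class and the tissue were first checked against the data. Although named intergenic, 42 of the 194 genes overlapped a protein-coding gene on either strand. The median body was 761 bp (interquartile range 397 to 1600), against 2027 bp for 19973 protein-coding genes. Median body GC content was 33.3%, against 36.4% in coding genes. As a check of the tissue, the 5′ ends of 8 germline and 8 somatic genes were compared. Peaks lay within 500 bp of 4 of the 8 germline 5′ ends in both lists (*glh-1*, *gld-1*, *rec-8* and *mex-5*), while *glp-1*, *pgl-1*, *him-3* and *syp-1* had none. Of the somatic genes, 7 of 8 had a wild type peak, among them the muscle genes *unc-54* and *myo-3*, the yolk genes *vit-2* and *vit-5* and the gut regulator *elt-2*, and 5 of 8 had a *prde-1* peak. Germline 5′ ends thus had peaks no more often than somatic ones, and the part of nuclei from other tissues in the lincRNA peaks was not tested.

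The sequences at some peaks of named lincRNA genes are shown first because the results below return to them. The rules for naming genes are given with the data processing. Each is the reference sequence (RefSeq, WBcel235, the same assembly as ce11) of 201 bases centred on the summit of a wild type peak, written 5′ to 3′ along the lincRNA gene. Capitals mark every copy of GAGAGA or its reverse complement TCTCTC, the hexamer discussed further on. The first set holds the highest-ranked peaks of named lincRNA genes that lay over 500 bp from any coding 5′ end, overlapped no coding gene in the window and were on chromosomes II to V or X. Of these, linc-50, at rank 1141, was named only for lying in a region dense in piRNA genes. Peaks of lincRNA genes that were not named, such as linc-151 at rank 885, ranked above it.
linc-128, chrV:1151362-1151562, + strand: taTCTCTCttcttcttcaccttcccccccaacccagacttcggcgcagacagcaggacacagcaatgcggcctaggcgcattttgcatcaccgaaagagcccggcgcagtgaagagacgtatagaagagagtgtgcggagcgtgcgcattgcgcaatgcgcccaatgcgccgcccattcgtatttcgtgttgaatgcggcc
K07C10.8, chrII:11167241-11167441, + strand: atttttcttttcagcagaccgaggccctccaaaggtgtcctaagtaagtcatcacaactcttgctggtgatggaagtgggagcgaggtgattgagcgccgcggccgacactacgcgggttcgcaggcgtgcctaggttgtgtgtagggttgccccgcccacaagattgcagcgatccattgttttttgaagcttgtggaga
linc-27, chrII:6370232-6370432, - strand: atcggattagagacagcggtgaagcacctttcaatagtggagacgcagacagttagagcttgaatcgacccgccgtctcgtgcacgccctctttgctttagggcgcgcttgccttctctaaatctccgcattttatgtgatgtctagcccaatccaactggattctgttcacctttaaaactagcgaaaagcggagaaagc
linc-126, chrIV:8629682-8629882, - strand: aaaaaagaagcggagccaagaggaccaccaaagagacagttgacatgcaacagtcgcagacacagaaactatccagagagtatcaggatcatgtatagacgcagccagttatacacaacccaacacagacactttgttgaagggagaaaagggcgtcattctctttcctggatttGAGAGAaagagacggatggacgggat
linc-50, chrIV:5582393-5582593, - strand: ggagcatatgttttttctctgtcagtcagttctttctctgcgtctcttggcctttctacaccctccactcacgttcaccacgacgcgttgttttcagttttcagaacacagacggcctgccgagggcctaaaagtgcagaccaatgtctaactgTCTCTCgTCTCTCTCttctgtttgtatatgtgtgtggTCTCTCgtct
The next set holds the highest-ranked wild type peaks of named lincRNA genes that had no counterpart in the *prde-1* mutant list, chosen with the same limits except that a coding 5′ end could be near.
linc-103, chrX:6258637-6258837, + strand: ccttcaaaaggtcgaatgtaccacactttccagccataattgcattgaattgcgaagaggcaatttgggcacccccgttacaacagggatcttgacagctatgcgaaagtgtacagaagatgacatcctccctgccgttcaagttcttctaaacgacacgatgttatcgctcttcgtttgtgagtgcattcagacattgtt
linc-157, chrIV:9063256-9063456, + strand: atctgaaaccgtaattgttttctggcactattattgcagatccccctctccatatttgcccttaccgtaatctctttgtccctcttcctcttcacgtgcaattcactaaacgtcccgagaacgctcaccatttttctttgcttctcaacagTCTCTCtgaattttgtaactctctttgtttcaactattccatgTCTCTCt
C16C4.19, chrII:1892481-1892681, - strand: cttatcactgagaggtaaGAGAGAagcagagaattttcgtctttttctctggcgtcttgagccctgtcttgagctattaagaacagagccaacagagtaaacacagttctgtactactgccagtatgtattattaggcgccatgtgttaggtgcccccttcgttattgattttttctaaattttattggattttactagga
linc-95, chrIII:3635700-3635900, - strand: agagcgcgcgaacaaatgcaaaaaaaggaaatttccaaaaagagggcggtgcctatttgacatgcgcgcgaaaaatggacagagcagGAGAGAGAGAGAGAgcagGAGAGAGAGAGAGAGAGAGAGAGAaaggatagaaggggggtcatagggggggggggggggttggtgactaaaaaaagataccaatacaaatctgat

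In wild type IGN, 81 of 194 lincRNA genes had a peak, or 41.8% (35.0 to 48.8%). The share was close to that of protein-coding genes, of which 39.4% had one (7865 of 19973), and it was above that of pseudogenes (17.4%). In the *prde-1* mutant list, 66 lincRNA genes had a peak, or 34.0% (27.7 to 40.9%), against 31.2% of coding genes. The coding value lay inside the lincRNA interval in both lists, so no difference between the classes was detectable by this measure.

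The shares differed more at the annotated 5′ end itself. In the wild type list the 5′ ends of 43 lincRNA genes lay inside a peak, or 22.2% (16.9 to 28.5%), against 13.2% of coding 5′ ends. In the *prde-1* mutant list the numbers were 32 genes or 16.5% (11.9 to 22.4%) against 9.18%. In both lists the coding share lay below the lincRNA interval. For the 116 lincRNA genes away from coding genes, which overlap none and have no coding 5′ end within 1000 bp, the wild type share was 19.0% (12.9 to 27.0%), an interval that includes the coding 13.2%. Genes of the Ensembl biotype ncRNA had a higher share, 26.6% in wild type, whereas antisense RNA genes had 12.0%. The shares of miRNA, snoRNA and tRNA genes were 30.7%, 59.5% and 93.6%. At 3′ ends lincRNA and coding genes were alike, with 13 lincRNA 3′ ends inside a wild type peak, or 6.70% (3.96 to 11.1%), against 5.96%. Within 500 bp of the 5′ end, without the body, 65 lincRNA genes had a wild type peak (33.5%), against 30.6% of coding genes.

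**Figure D1:**
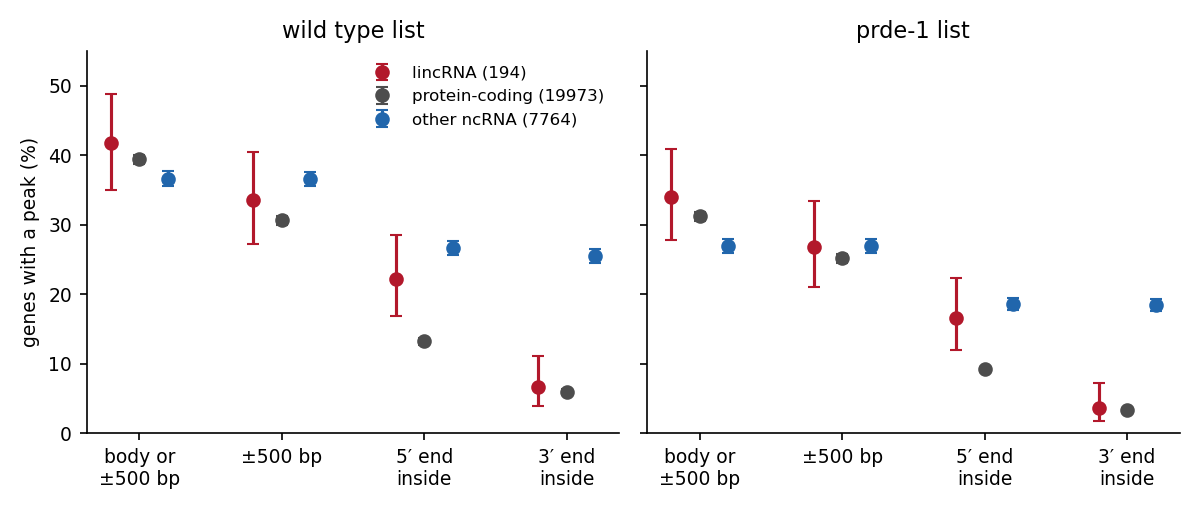
Share of genes with a peak (y axis, percent) in the wild type list (left) and the *prde-1* list (right) for lincRNA genes, protein-coding genes and genes of the biotype ncRNA (labelled other ncRNA), by 4 measures on the x axis: a peak in the body or within 500 bp of the 5′ end, a peak within 500 bp of the 5′ end, the 5′ end inside a peak and the 3′ end inside a peak. Points are shares and bars 95% Wilson intervals; the lincRNA interval clears the protein-coding point only for the 5′ end inside a peak.

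Position by position, peak cover around lincRNA 5′ ends was highest just upstream of the annotated end. In the wild type list, cover reached its maximum of 23.2% of genes at 39 bp upstream, at position -39, while coding genes reached 17.0% at -144. In the *prde-1* mutant list the maxima were 18.0% at -35 and 13.8% at -168. Between 1500 and 2000 bp from the end on both sides, wild type cover averaged 8.47% for lincRNA genes and 7.20% for coding genes. The peak of cover was thus nearer to the annotated end in lincRNA genes and was present in both genotypes. Start sites of transcription were not measured, so these values depend on where each class has its 5′ ends annotated. Within 500 bp of those ends the wild type shares were 33.5% and 30.6%. At 3′ ends, wild type lincRNA cover within 50 bp averaged 6.60%, below its level of 9.09% at 1500 to 2000 bp. Coding genes dipped there too, with 6.09% against 7.15%.

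**Figure D2:**
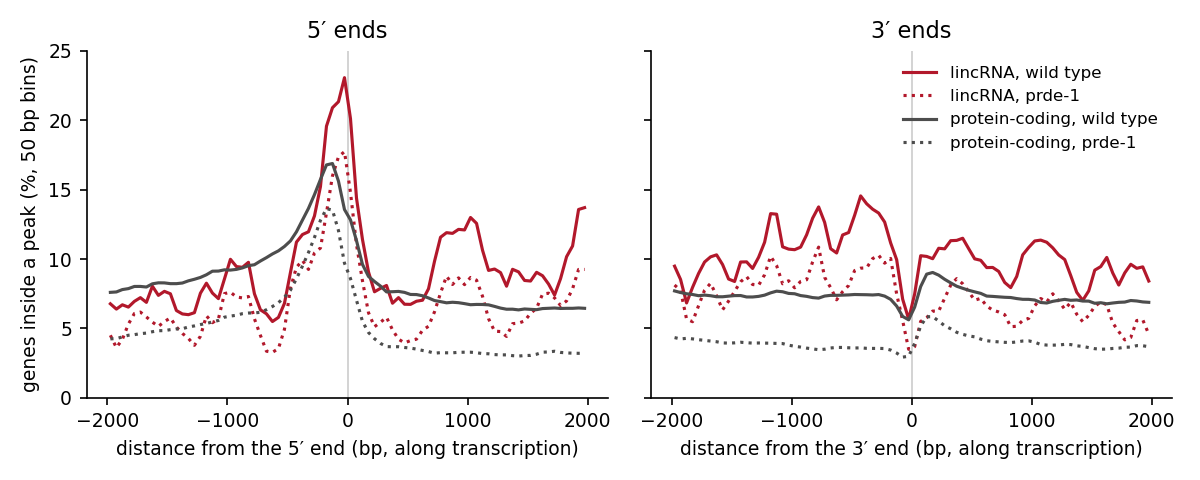
Percent of genes inside a peak (y axis, 50 bp bins) by distance along transcription from the annotated 5′ end (left) and 3′ end (right), in bp on the x axis. Red lines are 194 lincRNA genes and grey lines protein-coding genes, solid for wild type and dotted for *prde-1*. lincRNA cover peaks close to 0 at the 5′ end, and cover of both classes dips at the 3′ end. The smaller number of lincRNA genes makes their lines more uneven.

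The 81 genes carried 104 distinct wild type peaks. A single peak was found at 65 genes, a pair at 10, 3 peaks at 4 genes and 4 peaks at 2 genes. linc-110 and linc-133 shared one peak, giving 105 pairs of a gene and a peak. By summit, 48 pairs lay upstream of the gene, 38 in an exon, 10 in an intron and 9 downstream. The summit was within 100 bp of the 5′ end in 23 pairs and within 500 bp in 59. The *prde-1* mutant list had 83 peaks at 66 genes, with summits spread alike: 38 upstream, 30 in an exon, 10 in an intron and 6 downstream. The genes with 4 wild type peaks, named here after their values were seen, were linc-129 on chromosome III, with 5 peaks in the *prde-1* list, and linc-142 on X, with 4.

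Peak rank followed the deposited score, which sums −log10 p over the bases of a peak, with rank 1 the highest. The wild type peaks of lincRNA genes had a median rank of 40.3% of the list (interquartile range 15.2 to 65.5%), nearer the top than peaks of coding genes at 50.3%. Peaks of genes of the biotype ncRNA had 32.4%. The gap was smaller for lincRNA genes away from coding genes, at 47.9%. Within the upper 50% of the list the medians were 24.4% for lincRNA and 25% for coding genes, but a cut by rank itself draws both toward 25%. Ranks in the 2 lists are given side by side, and since the lists differ in length and their depth is unknown, they do not measure a change at a single peak. Cut into 10 equal bins by rank, the wild type list held 19 of the 104 lincRNA peaks in its top bin and 7 in its bottom bin. Width did not follow this order, with a median of 320.5 bp for lincRNA peaks and 351 bp for coding peaks. Median GC content was 44.0% and 44.1%.

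The peak that ranked highest at a lincRNA gene was at linc-90 (III, 352222 to 355402, + strand). It ranked 38 in the wild type list with a −log10 p of 62.7 and 35 in the *prde-1* mutant list with 42.7. Its summit lay in the linc-90 intron, 158 bp from the 5′ end of *gei-4*, which is transcribed from the other strand and overlaps linc-90. A second linc-90 peak covered the lincRNA 5′ end itself. That one ranked 3409 in the wild type list and 7145 in the *prde-1* list, and its width went from 1353 to 332 bp. As a percent of each list, the first peak ranked at 0.272% and 0.362% and the second at 24.4% and 73.9%.

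linc-91 (I, 4699610 to 4702866, + strand), a gene of 3257 bp with 1 exon, had 3 wild type peaks. The strongest was inside the gene body, 1718 bp from the 5′ end, and ranked 88 in the wild type list and 67 in the *prde-1* mutant list. Another covered the 5′ end, ranked 147 and 113, and had its summit 882 bp from the 5′ end of *chd-7*, which encodes a chromodomain helicase on the other strand. The third was 181 bp wide, ranked 13162 and had no counterpart.

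linc-128 (V, 1150906 to 1153207, + strand) stood farther from any coding 5′ end than linc-90 and linc-91. Its only peak covered the 5′ end in wild type and ranked 122, with a −log10 p of 49.1 and a width of 1347 bp. The summit was 4809 bp from the 5′ end of *cmd-1*, the calmodulin gene. In the *prde-1* mutant list the counterpart ranked 118 with a −log10 p of 33.2. It was 1028 bp wide and no longer reached the lincRNA 5′ end.

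At K07C10.8 (II, 11166676 to 11167706, + strand) a wild type peak of 1422 bp covered the whole gene. It ranked 299 in the wild type list and 182 in the *prde-1* mutant list, with −log10 p values of 42.6 and 30.2. The peak also held a snoRNA gene, K07C10.2, so the share of the signal that belongs to the lincRNA cannot be told apart. The nearest coding 5′ end was that of *ptr-13*, a patched-related gene, 4860 bp from the summit.

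The other lincRNA genes with highly ranked peaks mostly stood beside a coding promoter. At linc-131 the peak touched the 3′ end of the lincRNA by a single base and its summit lay 279 bp from the 5′ end of *ubc-3*, a ubiquitin-conjugating enzyme gene, with ranks 188 and 136. The peak of M04F3.7 (ranks 359 and 258) lay between it and *rpa-2*, a replication protein A subunit gene on the other strand, and had the same borders in both lists. That of linc-84 (ranks 609 and 333) also kept its borders, with its summit 250 bp from F55H12.7. The peak of linc-48, 2525 bp wide, extended over *osm-11*, a gene for a Notch co-ligand, and ranked 309 and 472. At linc-44 (ranks 527 and 519) the peak held a tRNA gene as well as the lincRNA 5′ end. At linc-35 the wild type peak ranked 304 and its summit lay inside F22D3.4.

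Counted over the genes, 55 lincRNA genes had a wild type peak that was not within 500 bp of a coding 5′ end, or 28.4% (22.5 to 35.1%). For coding genes, asked for a peak away from the 5′ ends of other coding genes, the share was 29.7%. Of the 104 wild type lincRNA peaks, 32 were within 500 bp of a coding 5′ end (30.8%, 22.7 to 40.2%), against 42.3% of all wild type peaks. Those 32 peaks had a median rank of 26.9% of the list, and the other 72 a median of 45.8%. By median rank, the lincRNA peaks next to coding promoters were therefore the stronger ones. The ranks of all wild type peaks were not split in this way, so the values do not show a trait of lincRNA genes.

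Among the stronger peaks away from coding 5′ ends were those of linc-27 and linc-126. linc-27 (II, 6369727 to 6369877, − strand) has a body of only 151 bp. Its peak ranked 627 in the wild type list and 449 in the *prde-1* mutant list, with the summit 455 bp upstream of the lincRNA and 971 bp from *lin-23*, which encodes an F-box protein. The peak of linc-126 (IV, 8628327 to 8629553, − strand) ranked 751 and 704, with the summit 229 bp upstream of the gene and 1551 bp from *dgk-4*, a diacylglycerol kinase gene. Both peaks covered the lincRNA 5′ end in both lists.

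Of the genes with a body of at least 200 bp, 3 were covered by wild type peaks over 100% of their length: K07C10.8 (1031 bp), linc-1 (204 bp) and linc-37 (364 bp). The shorter linc-44 and linc-2 were also fully covered. The linc-1 peak had its summit in *rpl-31*, a ribosomal protein gene, and ranked 1236 in the wild type list and 2554 in the *prde-1* list. linc-37 overlaps *zip-2*, a bZIP transcription factor gene whose 5′ end is 2 bp from that of the lincRNA, and its peak (ranks 4740 and 3491) also held the snoRNA gene K02F3.15. At *lep-5* (X, 12652591 to 12653520, − strand) neither list had a peak.

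In all, 5 wild type lincRNA peaks held a tRNA, snoRNA or miRNA gene. The remaining ones were at F19G12.10, which holds a snoRNA gene, and at linc-154 with the miRNA gene cel-mir-8196a. These classes were rich in peaks themselves, with 94.4% of tRNA genes and 69.4% of snoRNA genes having a wild type peak.

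The next comparison asked which lincRNA peaks were found in one genotype only. Of the 104 wild type peaks, 21 overlapped no *prde-1* peak by even 1 base, or 20.2% (13.6 to 28.9%). Among all wild type peaks 36.1% lacked a counterpart, above the interval, and among the peaks of coding genes 36.5%. A low share was not particular to lincRNA genes. It was 18.6% for miRNA, 16.7% for snoRNA and 9.48% for tRNA genes. Genes of the biotype ncRNA had 28.5% and antisense RNA genes 28.1%, both inside the lincRNA interval, while pseudogenes had 49.1%. The share over all peaks fell inside the lincRNA interval with lincRNA genes away from coding genes alone, where 15 of 60 peaks or 25% (15.8 to 37.2%) lacked a counterpart, and with the upper 50% of each list, where 16 of 63 or 25.4% (16.3 to 37.3%) did against 34.4% of all. In the other direction, 0 of 83 *prde-1* peaks at lincRNA genes lacked a wild type counterpart, which allows a share of up to 4.42%, against 1.91% of all *prde-1* peaks. The count was also 0 for miRNA, snoRNA, tRNA and antisense RNA genes. No lincRNA gene had a peak in the *prde-1* list alone, and such genes were rare among coding genes too, at 84 of 19973. Of the 81 genes with a wild type peak, 66 also had one in the mutant list (81.5%, 71.7 to 88.4%), against 78.2% of coding genes.

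The rank of the peaks moved with this share. Down to a rank of 50% of the wild type list, a part that held 63 of the 104 peaks, each lincRNA peak had a counterpart. In the lowest of the 10 rank bins, 7 of 7 had none, and 89.9% of all peaks in that bin had none. Given the bins that lincRNA peaks fell in and the rate of all peaks in each, 29.0 of 104 would lack a counterpart, or 27.9%, which is inside the lincRNA interval. Weighted by GC content in 5 bins, a choice made after seeing the data, the number was 35.0, and by rank and GC together it was 27.8. The lincRNA peaks without a counterpart had a median GC content of 46.1% and a median width of 207 bp, against 43.9% and 353 bp for the shared ones. Among coding peaks the GC medians were 47.7% without and 42.4% with a counterpart.

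**Figure D3:**
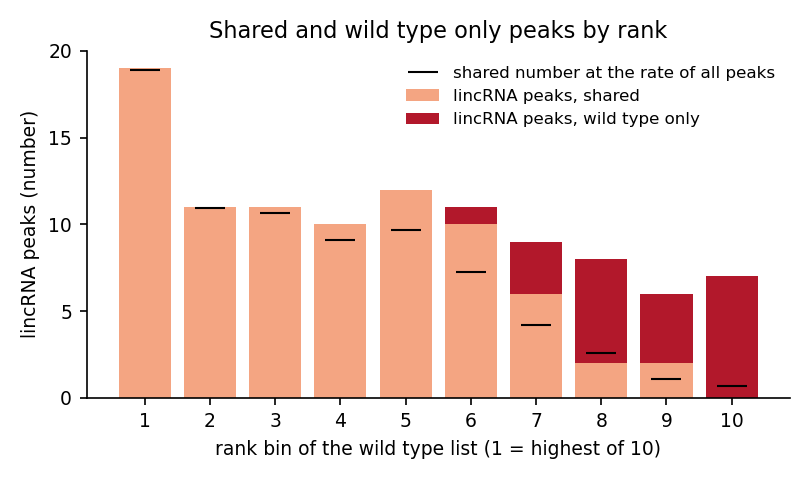
Number of wild type lincRNA peaks (y axis) in each of 10 rank bins of the wild type list (x axis, 1 the highest), split into peaks shared with the *prde-1* list and wild type only peaks. Black dashes mark the shared number at the rate of all wild type peaks in that bin; wild type only peaks of lincRNA genes begin in bin 6 and make up all 7 peaks in bin 10.

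The highest-ranked wild type lincRNA peaks without a counterpart lay from 58.1% of the list downward. At linc-103 (X, 6256778 to 6258976, + strand) the peak was in an exon, 1959 bp from the 5′ end, ranked 8133 and had a −log10 p of 6.86. A second linc-103 peak, 200 bp upstream, was shared, with ranks 8517 and 8200. linc-157 (IV, 9060779 to 9063687, + strand) had 2 wild type peaks near its 3′ end, ranked 8933 and 9907, and neither had a counterpart. At C16C4.19 (II, 1892105 to 1892567, − strand) the peak covered the 5′ end with its summit 14 bp upstream and ranked 9393. At linc-95 (III, 3633005 to 3635788, − strand) it ranked 9559, with the summit 12 bp upstream of the lincRNA and 344 bp from the 5′ end of *rilp-1*. At linc-40 (III, 1325891 to 1327724, + strand) it ranked 9941 and lay inside the coding gene Y82E9BL.18. The −log10 p of these peaks without a counterpart was between 4.67 and 6.91, below the median of 10.1 over all wild type lincRNA peaks.

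Counted by gene, 15 lincRNA genes had a wild type peak and no *prde-1* peak. Their best wild type ranks ran from 8933, at linc-157, to 13625, at linc-45, with 1 exception. The exception was linc-35, whose wild type peak at rank 304 did have a counterpart, ranked 222. The wild type peak, from 6926053 to 6927423 on chromosome II, ended within 500 bp of the lincRNA 5′ end, whereas the mutant peak, narrowed from 1371 to 962 bp, ended outside it. Besides the genes already described, linc-63, linc-80, linc-13, linc-93, linc-24, H09G03.1, linc-6, linc-67 and linc-100 made up the rest.

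The 83 shared wild type peaks were compared in width and strength. The *prde-1* peak was narrower at 70 of them (84.3%), with a median width ratio of 0.907 to wild type, against 0.893 over all 8949 shared peaks. Its −log10 p was lower at 80 of them (96.4%), with a median ratio of 0.709 against 0.707 over all. The lincRNA peaks thus followed the whole list in both. Their rank, as a percent of the list, was lower in the mutant by a median of 5.39 points, against 8.86 points over all shared peaks. The mutant list is shorter and nearly all its peaks are shared, which by itself moves shared peaks down in percent. In raw rank the median of shared lincRNA peaks was 4216 in the wild type list and 4022 in the *prde-1* list. These values compare 2 lists that were not scaled to each other, and their part in any change of chromatin accessibility cannot be told apart from sequencing depth.

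**Figure D4:**
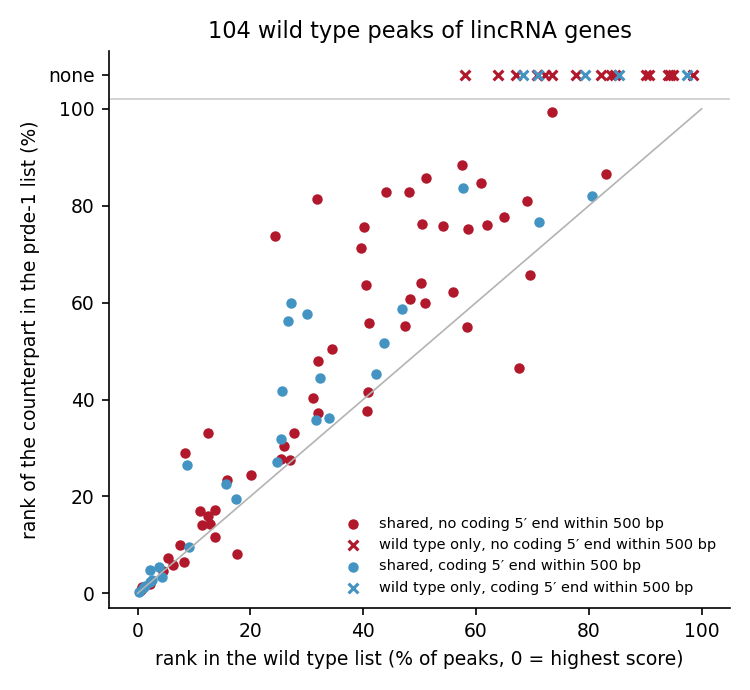
Rank of each of the 104 wild type lincRNA peaks in the wild type list (x axis, percent of the list, 0 the highest score) against the rank of its counterpart in the *prde-1* list (y axis, percent). Circles are the 83 shared peaks, crosses in the top row the 21 without a counterpart, blue those within 500 bp of a coding 5′ end. Most circles lie above the line of equal rank, where the shorter *prde-1* list by itself raises the percent. All crosses are to the right of 58%.

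Chromosomes differed in the share of lincRNA genes with a wild type peak. On chromosome II it was 25 of 43 (58.1%, 43.3 to 71.6%), against 40.6% of coding genes there, which is below the interval. On III it was 16 of 29 (55.2%), on X 18 of 38 (47.4%) and on I 8 of 23 (34.8%). Chromosomes IV and V had the lowest shares, 6 of 26 (23.1%, 11.03 to 42.1%) and 8 of 35 (22.9%, 12.1 to 39.0%). For coding genes the shares on IV and V were 37.3% and 27.7%, both inside the lincRNA intervals. With 6 chromosomes compared, chromosome II was the one where the coding share fell outside. On V the same number of genes, 8, had a peak in the *prde-1* list, whereas on III it went from 16 to 11. Coding shares went from 27.7% to 22.1% on V and from 50.4% to 40.5% on III. Those mutant coding shares lay inside the lincRNA intervals of 12.1 to 39.0% on V and 22.7 to 56.0% on III.

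**Figure D5:**
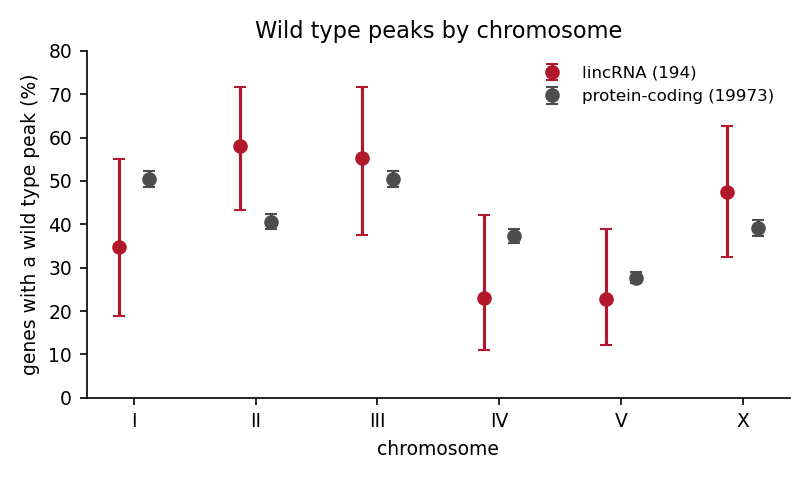
Share of genes with a wild type peak (y axis, percent) by chromosome (x axis) for 194 lincRNA and 19973 protein-coding genes, with 95% Wilson intervals as bars. lincRNA shares run from 22.9% on V to 58.1% on II, and the protein-coding point is outside the lincRNA interval on II alone.

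The piRNA domains of chromosome IV, where USTC acts, were examined separately. They were taken as the window of 3.5 Mb with most annotated piRNA genes (13585112 to 17085111) and the densest window of 1.5 Mb outside it (4813601 to 6313600). They hold 8 lincRNA genes, and 2 of these had a peak, in both lists. The peak of linc-50 (5582041 to 5582262, − strand) ranked 1141 in the wild type list and 635 in the *prde-1* mutant list, with −log10 p values of 27.9 and 22.9 and nearly the same borders. Its summit was 231 bp upstream of the lincRNA and 2191 bp from *fkh-7*, a forkhead transcription factor gene. The peak of linc-60 (14958931 to 14959349, − strand) ranked 8168 and 5320, with −log10 p values of 9.24 and 9.07. Both peaks were thus present in the mutant list. Among coding genes in the domains, 26.3% had a wild type peak and 21.5% a *prde-1* peak.

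Gene length and neighbours were compared for genes with and without a wild type peak. The 81 with a peak had a median body of 990 bp and the 113 without one 655 bp. A longer body gives more room for a peak, so lincRNA genes were set against coding genes of like length. Under 500 bp, 27 of 67 lincRNA genes had a peak (40.3%, 29.4 to 52.3%), against 25.8% of coding genes. From 500 bp to under 1500 bp the shares were 31.0% (21.4 to 42.5%) and 29.3%, and from 1500 bp up 57.1% (44.1 to 69.2%) and 45.1%. The coding share thus fell below the interval for the short genes alone. Of the lincRNA genes with a coding 5′ end within 1000 bp, 28 of 57 had a wild type peak (49.1%), as did 41 of 111 at over 1000 to 5000 bp (36.9%) and 12 of 26 farther away (46.2%). Whether the close coding gene was divergent (18 of 37) or on the same strand (10 of 19) made no detectable difference at these numbers.

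The DNA under the summits had a feature that the choice of genes did not use. The hexamer GAGAGA, searched on both strands as GAGAGA or TCTCTC, was present within 100 bp of the summit in 57 of 104 wild type lincRNA peaks, or 54.8% (45.2 to 64.0%). Over all 13996 wild type peaks the share was 33.5%, over peaks of coding genes 31.1% and over peaks of genes of the biotype ncRNA 39.7%. In the sequences printed above, it occurs at linc-128, linc-126, linc-50, linc-157, C16C4.19 and linc-95, and not at K07C10.8, linc-27 or linc-103. At linc-95 it forms runs of many copies, 38 bases in all, next to the summit.

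Over all peaks the share moved with rank, and so it was taken by rank. In the upper part of the wild type list, down to a rank of 50%, 58.7% of lincRNA peaks held the hexamer (46.4 to 70.0%) against 41.4% of all peaks. In the lower part it was 48.8% (34.3 to 63.5%) against 25.7%. At lincRNA peaks near a coding 5′ end it was present in 17 of 32 (53.1%) and away from one in 40 of 72 (55.6%), while all wild type peaks had 31.7% and 34.9%. For lincRNA peaks with and without a *prde-1* counterpart the shares were 54.2% of 83 and 57.1% of 21, where over all wild type peaks the shares were 40.0% and 22.2%. At the lincRNA 5′ ends, from 150 bp upstream to 50 bp downstream, 27 of 81 genes with a peak held it (33.3%) and 14 of 113 genes without one (12.4%). Coding 5′ ends were not split by peak, so whether this contrast is particular to lincRNA genes was not tested. The share over all 194 was 21.1% (15.98 to 27.4%), against 15.6% of coding 5′ ends, just below the interval. A hexamer match is a description of the sequence and says nothing of a bound factor.

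For the other motifs searched at summits, the share over all wild type peaks lay inside the lincRNA interval. The octamer CTGTTTCA, known from the upstream motif of piRNA genes, was within 100 bp of the summit in 0 of 104 lincRNA peaks, which allows up to 3.56%, against 0.822% of all wild type peaks. TATAAA was found in 11 lincRNA peaks (10.6%), against 10.9% of all, and TTTCCCGC in 1 (0.962%), against 1.53%. At 5′ ends, TATAAA was present in 20.1% of lincRNA windows (15.1 to 26.3%), below the 28.6% of coding windows.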

How the data were processed

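ATAC-seq had been performed on isolated germ nuclei of 3 wild type and 3 *prde-1(mj207)V* samples. Per the methods and the submitters' processing notes, the authors trimmed reads with cutadapt, aligned them to ce11 with Bowtie2, removed duplicates and poorly mapped reads, merged the downsampled replicates, kept short fragments, shifted reads for the Tn5 offset and called peaks with Genrich. Tool versions are not given in the sources used here. Merging removes any spread between samples, and the depth is unknown, so a shorter list can reflect fewer reads. The deposited lists give, for each peak, a score (−log10 p summed over its bases), a −log10 p that the authors did not adjust, and the summit. There were 0 columns per sample. Differential testing needs reads, which were not used here.

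Genes came from Ensembl release 115 (WBcel235). Overlap needed 1 shared base. Peaks were ranked by score. Shares carry Wilson intervals at 95%. The expected number without a counterpart used the rates of all wild type peaks in 10 bins by rank. Python 3.11.15, numpy 2.4.6, scipy 1.17.1 and pandas 2.3.3 were used, and the functions were tested on simulated data. Named genes were the 10 with the highest-ranked wild type peak, the 5 highest away from coding 5′ ends, the 5 highest without a counterpart, any with an unmatched *prde-1* peak (0 found), any peak-bearing gene in the piRNA domains, letter-named genes and the 3 most covered genes of 200 bp or more. The members and lists were chosen with earlier results of these data known. Alternatives changed the window, the part of the lists, the overlap and the genes included.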

Additional observations from a re-analysis of the deposited data

How the results depend on the processing

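Each of the 7 main values was recomputed under up to 10 alternatives, and 46 of 61 alternative values stayed inside the 95% interval of the main one. With the upper 50% of each list by score, 26.8% of lincRNA genes had a wild type peak and 19.6% a *prde-1* peak, the median rank was 24.4%, 16.5% of genes had a peak away from coding 5′ ends and 14.4% of 5′ ends lay in a peak. The coding values fell likewise, to 25.9% and 18.9% with a peak, a median rank of 25% and 9.62% for the 5′ ends. A cut by rank itself draws both median ranks toward 25%, so this setting cannot show whether the gap in rank holds. With the 9674 highest wild type peaks, so that both lists were equally long, 34.0% of lincRNA genes had a peak in each list. The median rank was 28.9%, against 34.7% for coding genes. Of wild type lincRNA peaks 4.88% (4 of 82, 1.91 to 11.9%) lacked a counterpart against 16.6% of all, and of *prde-1* lincRNA peaks 6.02% (5 of 83) against 10.9%. The absence of mutant-only lincRNA peaks therefore depended on the longer wild type list. With a window of 1000 bp, 50.5% and 41.8% of lincRNA genes had a peak, against 43.5% and 35.0% of coding genes. Without the body the shares were 33.5% and 26.8%, and 20.6% for peaks away from coding 5′ ends. Among the 116 lincRNA genes that overlap no coding gene and have no coding 5′ end within 1000 bp, the last share was 37.9%, and the 5′ end lay in a wild type peak for 19.0% (12.9 to 27.0%), no longer apart from the coding 13.2%. The lower rate of unmatched wild type lincRNA peaks was likewise no longer apart from that of all peaks for these genes (25%) or in the upper 50% of the lists (25.4%). Leaving out peaks that hold a small RNA gene, chosen after seeing the data, moved no value out of its interval. No paired analysis was possible because the replicates of each genotype were merged before peaks were called, so leaving out a replicate could not be done either.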
